A study of Mus musculus with 6 samples.

Results

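The 10 genes H2-K1, H2-D1, H2-T23, B2m, Tap1, Tap2, Tapbp, Psmb8, Psmb9 and Psmb10, which build MHC class I molecules and supply their peptides, were taken by symbol from the 20950 entries of the expression table of C2C12 cells. All 10 were found. C2C12 is a mouse myoblast line whose cells fuse into myotubes when serum is reduced, and the sequencing asked what exosomes of fetal bovine serum (FBS) change in this process. Messenger RNA was read in 6 libraries of 5 conditions. All cells were first grown in DMEM with 10% FBS. Growing cells in 10% FBS gave 1 library, differentiating cells in 2% horse serum (HS) gave 1, and those in 2% HS + exosome gave 1. Differentiating cells in 0.2% FBS gave 1 library and those in 0.2% FBS + exosome gave 2, called replicates 1 and 2. The added exosomes were isolated from FBS and given in the amount that 10% FBS contains. FBS contains exosomes of its own, and no source used here says that the serum of the 10% FBS and 0.2% FBS media was depleted of them. No source says that the 2 replicates were separate cultures, so their spread may be technical, and the other 4 conditions have no replicate.

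In a class I molecule a heavy chain is held together with a light chain and a short peptide. H2-K1 and H2-D1 encode classical heavy chains, which show peptides to cytotoxic T cells, and H2-T23 encodes Qa-1, a nonclassical heavy chain read by receptors of natural killer cells. B2m encodes the light chain. Tap1 and Tap2 form the transporter that carries peptides into the endoplasmic reticulum, and Tapbp encodes tapasin, which holds empty class I molecules at that transporter. Psmb8, Psmb9 and Psmb10 encode the inducible catalytic subunits that replace Psmb5, Psmb6 and Psmb7 of the proteasome and so form the immunoproteasome. Interferons are the best known inducers of these genes, through IRF factors and NLRC5 among others. Skeletal muscle fibres are known for little class I on their surface, and muscle inflammation for more of it.

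Of the 10 genes, 8 lie on chromosome 17 within 2117 kb, in or beside the mouse MHC (GENCODE vM21, mm10). H2-K1 (chr17:33996017-34000347) and H2-D1 (chr17:35262730-35267499) have the block of Psmb9 (chr17:34181987-34187764), Tap1 (chr17:34187553-34197225), Psmb8 (chr17:34197721-34201454) and Tap2 (chr17:34203527-34216321) between them. Tapbp (chr17:33915899-33929292) and H2-T23 (chr17:36029773-36032855) lie on either side of these. B2m (chr2:122147686-122153083) and Psmb10 (chr8:105935735-105938444) lie outside. The starts of Tap1 and Psmb9 overlap on opposite strands. All are protein coding.

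The stretch before the start of class I genes carries the elements through which interferon and NF-kB factors act on them, so it is shown for a classical heavy chain gene and for the light chain gene. The promoter table of RefSeq (GRCm38.p6, which is mm10) held 9 of the 10 genes, without Tap2. The 250 bases before each start were searched on both strands for 5 motifs. The interferon-stimulated response element core GAAANNGAAA was in the windows of H2-T23 and B2m, and in 2.97% of the 32817 promoters of the table. The gamma-activated site motif TTCNNNGAA was in the window of Psmb8 and in 7.01% of all. All 250 bases of the Psmb8 window lie inside exons that GENCODE annotates for that gene, as do those of H2-D1 and Psmb9. The windows of H2-T23, Tapbp and Psmb10 overlap such exons by 154, 146 and 52 bases. The NF-kB motif GGGANTTCC was in none of the 9 genes and in 1.43% of all. CCAAT was found for 7 genes (33.8% of all), and TGACG for H2-K1, H2-D1, B2m, Tap1 and Psmb9 (17.7% of all). The CCAAT and TGACG sites of Tap1 and Psmb9 are the same ones, in the 225 bases between their RefSeq starts, and are counted for both genes. After the windows had been viewed, a shorter form, GGGATTCC, was added with GAAGTGAAA, the interferon element of classical class I genes. Both were in H2-K1 and H2-D1, beside 0.890% and 0.402% of all promoters. These matches are descriptions of letters, not of binding. In the whole windows of H2-K1 (for 1 of its 2 RefSeq starts, chr17:34000348-34000597, minus strand) and B2m (chr2:122147437-122147686, plus strand), capitals mark GGGATTCC and the reverse complement of GAAGTGAAA in the former and GAAACTGAAA in the latter.
H2-K1: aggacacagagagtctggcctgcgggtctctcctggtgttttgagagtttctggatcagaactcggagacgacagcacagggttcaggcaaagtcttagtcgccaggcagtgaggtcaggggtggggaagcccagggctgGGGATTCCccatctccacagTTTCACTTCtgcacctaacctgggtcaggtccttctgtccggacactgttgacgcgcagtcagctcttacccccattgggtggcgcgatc
B2m: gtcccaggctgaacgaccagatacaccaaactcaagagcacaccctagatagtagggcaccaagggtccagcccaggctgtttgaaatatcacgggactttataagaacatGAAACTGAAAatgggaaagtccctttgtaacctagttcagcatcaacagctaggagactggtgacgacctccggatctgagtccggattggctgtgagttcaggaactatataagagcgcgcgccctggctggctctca

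Pieces of 30 bases show how alike the elements of the heavy chain genes are. Capitals mark the same added motifs in H2-K1 (chr17:34000428-34000457, minus strand) and H2-D1 (chr17:35262924-35262953, plus strand), and the response element core, read on the other strand, in H2-T23 (chr17:36032806-36032835, minus strand).
H2-K1: GGGATTCCccatctccacagTTTCACTTCt
H2-D1: GGGATTCCccatctcctcagTTTCACTTCt
H2-T23: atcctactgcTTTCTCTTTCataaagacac
The pieces of H2-K1 and H2-D1 were identical at 29 of 30 bases. The RefSeq starts of H2-D1 and H2-T23 lie inside the annotated genes, downstream of the starts in GENCODE, so both of these pieces lie within the GENCODE genes.

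Values are FPKM (fragments per kilobase of transcript, scaled to the mapped fragments of the library) as deposited, with no counts. Depth estimated from the steps of low values was 33700000 to 39400000 reads a library. Changes are differences of log2(FPKM + 1), and 10729 genes that averaged 1 FPKM or more over the 6 libraries entered the tests. That filter left 7 of the 10 genes, without Tap1, Psmb8 and Psmb9. The median gene of the 10729 was 0.14 higher with exosomes in 0.2% FBS and 0.04 lower (-0.04) in 2% HS. The myogenic markers showed muscle cells in every library, with Myod1 between 83.7 and 110 FPKM. Summed leukocyte markers (8 genes) lay between 2.11 and 3.47 FPKM and summed endothelial markers (Pecam1 and Cdh5) between 0.0237 and 0.179 FPKM. Of the markers of professional antigen presenting cells, the class II genes H2-Aa, H2-Ab1 and H2-Eb1 were listed at 0 in all libraries, and the pan-leukocyte gene Ptprc did not exceed 0.0119 FPKM. Other markers were detected. The leukocyte markers Cd68 and Lyz2 passed the filter, as did H2-DMa of the 10 class II and invariant chain genes, which summed to 1.76 to 3.87 FPKM.

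Added exosomes went with higher class I transcripts in 0.2% FBS. All 7 genes that passed the filter were higher in each exosome library than in the control, against 55.2% of all genes tested. B2m, Tapbp, H2-T23, Psmb10 and H2-D1 were higher by 0.65 to 0.97 on the log2 scale, and Tap2 and H2-K1 by 0.38 and 0.25. In 2% HS the same 7 genes had a median change of 0.18, with Tapbp and Psmb10 lower. These libraries are bulk RNA, so more cells with these transcripts and more RNA per cell cannot be told apart.

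**Figure D1:**
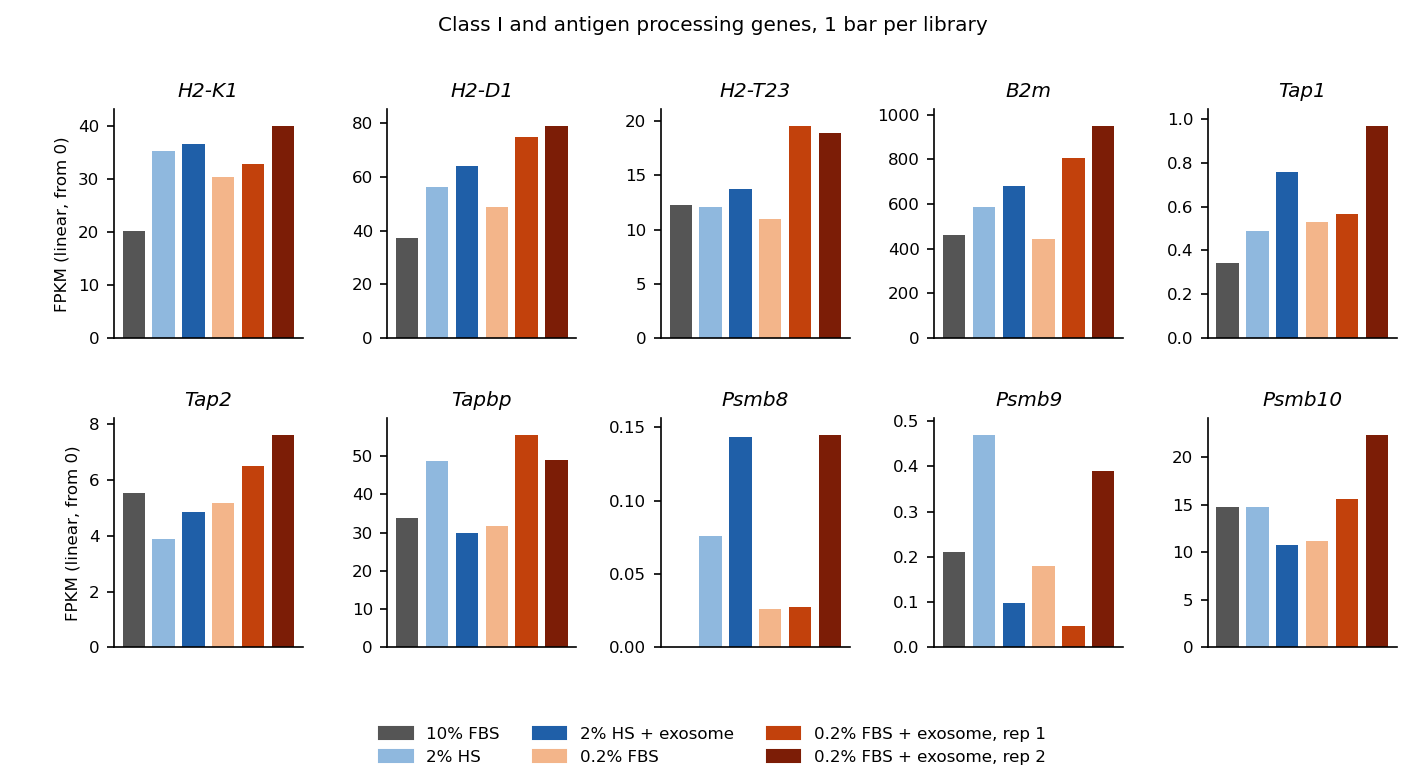
Level of each of the 10 genes in each library, in FPKM on linear axes from 0, 1 bar per library. The 2 libraries of 0.2% FBS + exosome hold the highest values of H2-D1, H2-T23, B2m, Tap2, Tapbp and Psmb10, while Tap1, Psmb8 and Psmb9 stay below 1 FPKM in every library.

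Of the heavy chains, H2-D1 was the most abundant. It was at 37.3 FPKM in 10% FBS, 56.1 in 2% HS, 64.0 in 2% HS + exosome, 48.7 in 0.2% FBS, and 74.8 and 78.7 in the 2 libraries of 0.2% FBS + exosome. The growing cells had the lowest value and both exosome libraries of 0.2% FBS the highest, above each of the other 4. The change in 0.2% FBS was 0.65 ± 0.05 (SD over the 2 exosome libraries against 1 control), a ratio of 1.58, and 0.19 in 2% HS, a ratio of 1.14.

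H2-K1 was at 20.3 FPKM in 10% FBS, 35.2 in 2% HS, 36.6 in 2% HS + exosome, 30.3 in 0.2% FBS, and 32.9 and 40.0 in 0.2% FBS + exosome. The growing cells stood below all differentiating cells, and the exosome libraries of 0.2% FBS lay on either side of both 2% HS libraries. Its change of 0.25 ± 0.19 (SD, n = 2) was the smallest of the 7 genes in 0.2% FBS, and replicate 1 alone gave 0.11. In 2% HS the change was 0.05, below the SD of the replicated condition. H2-K1 is the 1 gene of the 7 whose sign in replicate 1 turned, to -0.02, when libraries were scaled to a shared 75th percentile of their expressed genes.

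H2-T23 was at 12.3 FPKM in 10% FBS, 12.1 in 2% HS, 13.8 in 2% HS + exosome, 11.0 in 0.2% FBS, and 19.5 and 18.9 in 0.2% FBS + exosome. The 4 other libraries ran from 11.0 to 13.8 FPKM, and both exosome libraries of 0.2% FBS stood clear of them. The change was 0.76 ± 0.03 (SD, n = 2) in 0.2% FBS and 0.18 in 2% HS. Unlike H2-K1 and H2-D1, the gene was no higher in differentiating cells without exosomes than in growing cells, at -0.15 for 0.2% FBS and -0.02 for 2% HS against 10% FBS.

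B2m, the light chain, was the most abundant of the 10 genes per length. It was at 459 FPKM in 10% FBS, 588 in 2% HS, 680 in 2% HS + exosome, 445 in 0.2% FBS, and 808 and 948 in 0.2% FBS + exosome. Both exosome libraries of 0.2% FBS were above the other 4, and the difference between growing cells and 0.2% FBS (-0.05) was below the SD of the replicated condition. The change of 0.97 ± 0.16 (SD, n = 2) was the largest of the 10 genes in 0.2% FBS, a ratio of 1.97, with 0.86 in replicate 1 and 1.09 in replicate 2. In 2% HS the change was 0.21, a ratio of 1.16. B2m stood at 7.97 times the sum of H2-K1 and H2-D1 in growing cells, at 5.63 times in 0.2% FBS, and at 7.50 and 7.98 times in 0.2% FBS + exosome. The 2% HS libraries lay between these, at 6.44 without and 6.75 with exosomes.

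Of the peptide transporter, Tap2 was the abundant chain. It was at 5.52 FPKM in 10% FBS, 3.89 in 2% HS, 4.86 in 2% HS + exosome, 5.19 in 0.2% FBS, and 6.51 and 7.60 in 0.2% FBS + exosome. The 2% HS control was the lowest library and both exosome libraries of 0.2% FBS the highest. Its changes with exosomes were 0.38 ± 0.14 (SD, n = 2) in 0.2% FBS and 0.26 in 2% HS. After scaling to the 75th percentile they were 0.24 and 0.29. Tap1 stayed below 1 FPKM, at 0.343 in 10% FBS, 0.487 in 2% HS, 0.758 in 2% HS + exosome, 0.531 in 0.2% FBS, and 0.567 and 0.967 in 0.2% FBS + exosome. By the estimated depth these are 37 to 90 reads a library, and replicate 1 of the exosome condition lay next to its control. The Tap1 level was 6.22% to 15.6% of that of Tap2, with the 2 exosome libraries of 0.2% FBS (8.71% and 12.7%) on either side of their control (10.2%).

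Tapbp, which encodes tapasin, went in opposite directions in the 2 media. It was at 33.7 FPKM in 10% FBS, 48.6 in 2% HS, 29.9 in 2% HS + exosome, 31.7 in 0.2% FBS, and 55.4 and 48.8 in 0.2% FBS + exosome. The 2% HS control stood with the exosome libraries of 0.2% FBS, and replicate 2 of these exceeded it by only 48.84 against 48.61 FPKM. The changes were 0.70 ± 0.13 (SD, n = 2) in 0.2% FBS and -0.68 in 2% HS.

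Of the inducible proteasome subunits, Psmb10 was at 14.8 FPKM in 10% FBS, 14.7 in 2% HS, 10.8 in 2% HS + exosome, 11.2 in 0.2% FBS, and 15.7 and 22.3 in 0.2% FBS + exosome. The growing cells and the 2% HS control were close to replicate 1, and replicate 2 stood above all other libraries. The changes were 0.69 ± 0.34 (SD, n = 2) in 0.2% FBS, the widest spread of the 7 genes, and -0.42 in 2% HS. Psmb8 was listed at 0 in 10% FBS and did not exceed 0.144 FPKM elsewhere, which by the estimated depth is at most 7 reads a library. Psmb9 ran from 0.0468 to 0.468 FPKM, or 2 to 21 reads, with its highest value in the 2% HS control and its lowest in replicate 1 of 0.2% FBS + exosome. The 2 replicates alone held 1 and 7 reads of Psmb8 and 2 and 15 of Psmb9. In 2% HS, Psmb9 went from 21 reads without to 4 with exosomes, in 1 library each, and was not tested.

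The constitutive partners were far more abundant. Psmb5 ran from 151 to 213 FPKM, Psmb6 from 122 to 166 and Psmb7 from 180 to 272, each lowest in replicate 1 of 0.2% FBS + exosome. The summed inducible subunits were 3.01% of the summed constitutive ones in 10% FBS, 2.36% in 2% HS, 1.81% in 2% HS + exosome, 1.75% in 0.2% FBS, and 3.48% and 4.55% in 0.2% FBS + exosome. Both exosome libraries of 0.2% FBS were above the other 4, and their mean was 2.29 times the control. In 2% HS the exosome library was below its control. The sum is nearly all Psmb10, which stood at 4.12% of Psmb7 in 0.2% FBS and at 8.72% and 12.03% with exosomes. The share of the PA28 activator, which opens the proteasome and is encoded by Psme1 and Psme2, had the same order of conditions, at 25.7%, 18.0%, 16.4% and 14.2% in 10% FBS, 2% HS, 2% HS + exosome and 0.2% FBS, and at 29.7% and 28.9% in 0.2% FBS + exosome. Growing cells came next below those libraries in both shares.

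**Figure D2:**
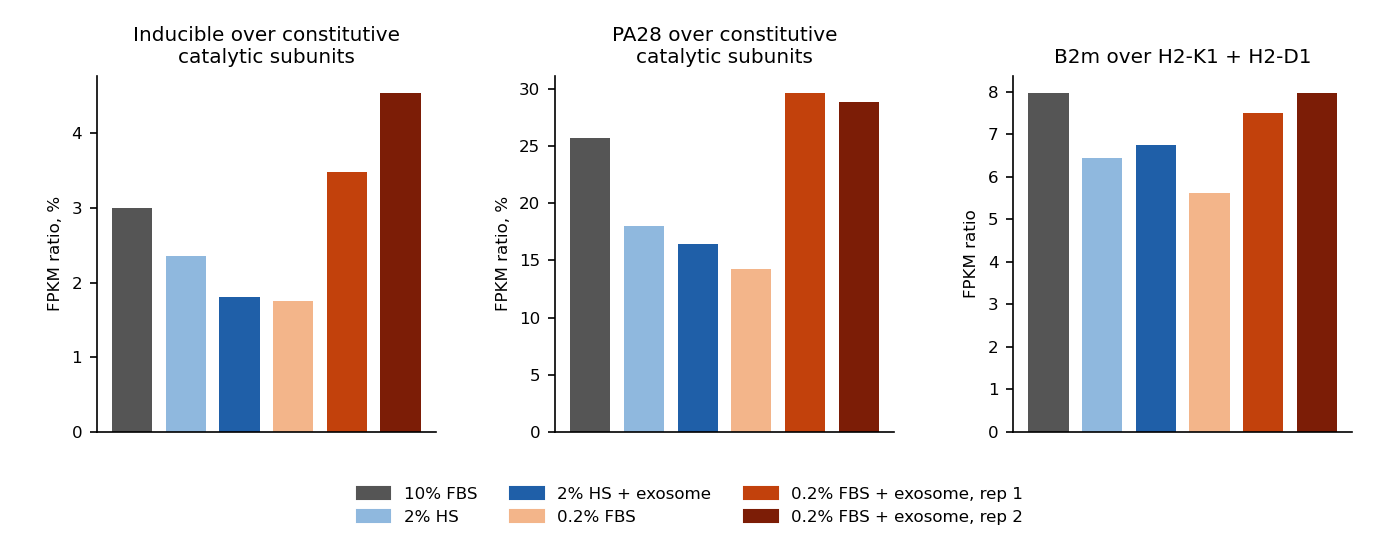
FPKM ratios in each library, 1 bar per library from 0, for the inducible over the constitutive catalytic subunits (%), the PA28 activator over the constitutive catalytic subunits (%) and B2m over the sum of H2-K1 and H2-D1. In each panel the control of 0.2% FBS has the lowest bar, at 1.75%, 14.2% and 5.63, and the 2 libraries of 0.2% FBS + exosome are higher than it.

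Across the genes, the changes in 0.2% FBS had a median of 0.69 over the 7 tested, beside 0.14 over all 10729. After scaling to the same 75th percentile the median was 0.54 beside a median of all genes of 0.00, and 6 of the 7, without H2-K1, were higher in each exosome library, against 40.9% of all genes. None of the 7 passed a log2 change of 1 in each exosome library, against 0.895% of all genes. Both exosome libraries lay above all 4 other libraries for 6 of the 7, without H2-K1, against 27.8% of all genes, and Tapbp did so narrowly. The sum over the 10 genes, most of it B2m, was 584 FPKM in 10% FBS, 759 in 2% HS, 841 in 2% HS + exosome, 583 in 0.2% FBS, and 1013 and 1166 in 0.2% FBS + exosome.

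**Figure D3:**
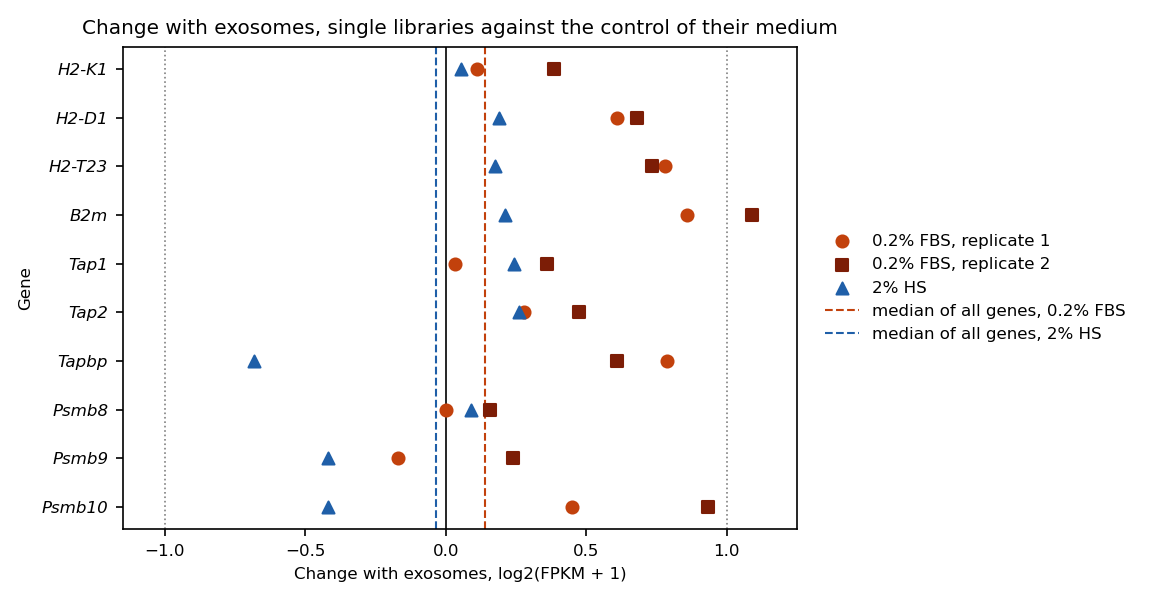
Change of each gene with exosomes on the log2(FPKM + 1) scale, with the 2 libraries of 0.2% FBS against their control (circles and squares) and the library of 2% HS against its control (triangles). Dashed lines mark the median of all genes in each medium and dotted lines the fold limit of 1. In 0.2% FBS only B2m in replicate 2 (1.09) lies past that limit, and in 2% HS Tapbp (-0.68), Psmb9 (-0.42) and Psmb10 (-0.42) lie left of 0, as does Psmb9 in replicate 1 of 0.2% FBS (-0.17).

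The exosome effect common to both media was tested with limma over the 5 differentiating libraries. None of the 7 genes passed an adjusted p of 0.05, as did none (0%) of the 10729, of which 708 had an unadjusted p under 0.05. Among those 708 were H2-T23, with a log2 change of 0.51 (SE 0.18), H2-D1 at 0.45 (SE 0.17) and B2m at 0.65 (SE 0.25). The adjusted p of each in limma was 0.706. For H2-K1, Tap2, Tapbp and Psmb10 the common effect was 0.17, 0.33, 0.11 and 0.22. Without replicate 2 it was 0.08 for H2-K1 and 0.02 for Psmb10, and without replicate 1 it was -0.04 for Tapbp.

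A second limma fit with 1 mean per condition tested the change within 0.2% FBS, with a spread that comes only from the 2 exosome libraries of that medium and is assumed equal for the single libraries. By this fit H2-T23 (0.76, SE 0.16, adjusted p = 0.0229 in limma), Tapbp (0.70, SE 0.17, adjusted p = 0.0368) and H2-D1 (0.65, SE 0.17, adjusted p = 0.0479) passed as higher. These are 3 of 7 genes, against 8.18% of all genes tested (878 higher and 464 lower). B2m had the largest change, 0.97, with a larger error (SE 0.34, adjusted p = 0.0928 in limma), and Psmb10 was at 0.69 (SE 0.21, adjusted p = 0.0676 in limma). Tap2 and H2-K1 had adjusted p of 0.177 and 0.386 in limma. After scaling to the 75th percentile only H2-T23 passed (adjusted p = 0.0400 in limma), against 4.42% of all genes as higher (474 higher and 730 lower). With no mean-variance trend H2-T23 and B2m passed (adjusted p = 0.0388 and 0.0298 in limma), against 5.77% of all genes as higher.

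In 2% HS none of the 7 genes had a log2 change beyond 1, against 0.652% of all genes. None of the 7 passed in limma there, against 9 of the 10729 genes. The 4 genes of the molecule itself were higher by 0.05 to 0.21 and Tap2 by 0.26, beside a median of all genes of -0.04. Tapbp had the lowest limma p of the 7 there, 0.00867 unadjusted and 0.629 adjusted. The difference between the changes in the 2 media was tested with the second limma fit. None of the 7 passed, against 1.17% of all genes (125). Of the 7, 3 had an unadjusted p under 0.05 in limma, as did 2091 of the 10729 genes. Tapbp came nearest, with a difference of 1.38 (SE 0.26, adjusted p = 0.0540 in limma), followed by Psmb10 at 1.11 (SE 0.33, adjusted p = 0.127) and H2-T23 at 0.58 (SE 0.24, adjusted p = 0.236). With a pseudocount of 0.1 FPKM Tapbp passed (adjusted p = 0.0470 in limma).

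Without exosomes, the genes differed between differentiating and growing cells in both directions. H2-K1 and H2-D1 were higher than in growing cells in both media, by 0.56 and 0.37 in 0.2% FBS and by 0.77 and 0.57 in 2% HS. In 0.2% FBS the other 5 genes lay between -0.37 (Psmb10) and -0.05 (B2m). In 2% HS, B2m and Tapbp were at 0.36 and 0.52, Psmb10 and H2-T23 at -0.01 and -0.02, and Tap2 at -0.41. No gene passed a change of 1 in either comparison, against 2.48% of all genes in 0.2% FBS and 2.31% in 2% HS. The median of the 7 was -0.08 in 0.2% FBS, beside -0.09 for all genes, and 0.36 in 2% HS, beside -0.08. Both comparisons share the single library of growing cells, and those of 0.2% FBS with and without exosomes share its single control, so these are values with no test.

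The other genes of the pathway were read from lists of known pathway genes, chosen with earlier results of these data known. Counts of these lists and of the 10 genes, set beside shares of all genes, are therefore descriptions and not independent support. Of 27 further class I and class I-like genes in the table, 9 passed the filter, and 8 of them were higher in each exosome library of 0.2% FBS, against 55.2% of all genes, with a median change of 0.59 there and 0.00 in 2% HS. By the fit within 0.2% FBS, 4 passed as higher in limma, against 8.18% of all genes. H2-T22, a nonclassical gene, went from 4.11 FPKM to 7.69 and 9.70 (0.92, adjusted p = 0.0215). Mr1, which presents vitamin metabolites to T cells, went from 6.55 to 10.9 and 11.9 (0.71, adjusted p = 0.0286). H2-Q4, a heavy chain gene of the Q region, went from 9.004 to 14.2 and 16.2 (0.69, adjusted p = 0.0327). Fcgrt, the heavy chain of the neonatal Fc receptor, which also binds the light chain, went from 55.5 to 90.0 and 114 (0.85, adjusted p = 0.0332).

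Of 12 genes of peptide loading and trimming, 7 were higher and 2 lower in each exosome library of 0.2% FBS, with a median of 0.21. Over all genes 55.2% were higher, a share near that of the list, and 27.5% were lower. After scaling to the 75th percentile 4 were higher and 3 lower, with a median of 0.06, against 40.9% of all genes as higher. In limma 1 passed, against 8.18% of all genes as higher and 4.32% as lower. This was Thop1, a cytosolic peptidase that destroys class I peptides, which fell from 64.5 FPKM to 32.4 and 27.2 (-1.09, adjusted p = 0.0133 in limma). It stood at 30.3 FPKM in growing cells and at 56.0 and 71.4 in 2% HS without and with exosomes. Of 8 constitutive catalytic and regulatory proteasome subunits, 2 were higher and 6 lower in each exosome library, against 55.2% and 27.5% of all genes. Their median was -0.21. After scaling the counts were again 2 and 6, with a median of -0.36, against 40.9% of all genes as higher. The 2 higher were those of the PA28 activator. Of the 8, only Psme1 passed in limma, against 8.18% of all genes that passed as higher and 4.32% as lower, and went from 30.01 FPKM to 44.6 and 55.4 (0.71, adjusted p = 0.0444). The catalytic Psmb5, Psmb6 and Psmb7 were at -0.42, -0.30 and -0.57, and none of these passed.

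Of 20 regulators of class I transcription that passed the filter, 18 were higher and 1 lower in each exosome library of 0.2% FBS, with a median of 0.32, against 55.2% of all genes that were higher. After scaling these counts were 12 and 1, with a median of 0.18, against 40.9%. Irf1 and Irf9, factors of interferon signalling, were among those that passed in limma. Irf1 was at 27.5 FPKM in 10% FBS, 25.5 in 2% HS, 20.3 in 2% HS + exosome, 18.8 in 0.2% FBS, and 40.4 and 32.2 in 0.2% FBS + exosome. Its lowest value was in the 0.2% FBS control and its highest in both exosome libraries of that medium. The change of Irf1 was 0.91 (adjusted p = 0.0223 in limma) and that of Irf9 0.96 (adjusted p = 0.0178 in limma). Nlrc5, the class I transactivator, stayed at 0.168 to 0.444 FPKM and was not tested.

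A list of 9 genes of interferon signalling, made of receptors, kinases and the SOCS inhibitors Socs1 and Socs3, had all 9 higher in each exosome library of 0.2% FBS, against 55.2% of all genes, with a median of 0.50 there and -0.12 in 2% HS. In limma 3 of the 9 passed as higher within 0.2% FBS, against 8.18% of all genes. Ifnar1, a chain of the type I interferon receptor, was at 0.70 (adjusted p = 0.0304), and the inhibitors Socs1 and Socs3 at 0.79 and 1.89 (adjusted p = 0.0434 and 0.0178). Of 10 tested interferon-stimulated genes outside the pathway, 8 were higher and 2 lower in each exosome library (55.2% of all genes were higher), with a median of 0.54. Ifit1, Ifit3, Isg15 and Oasl2, antiviral effectors, were past 1 in each library, against 0.895% of all genes, and passed in limma, at 1.01, 1.10, 1.22 and 1.07. After scaling to the 75th percentile none of the 4 was past 1 in both libraries. In 2% HS the same 4 genes were at 0.80, 1.03, 0.17 and 0.25. Of 10 class II genes only H2-DMa passed the filter, at -0.10 in 0.2% FBS and -0.08 in 2% HS.

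**Figure D4:**
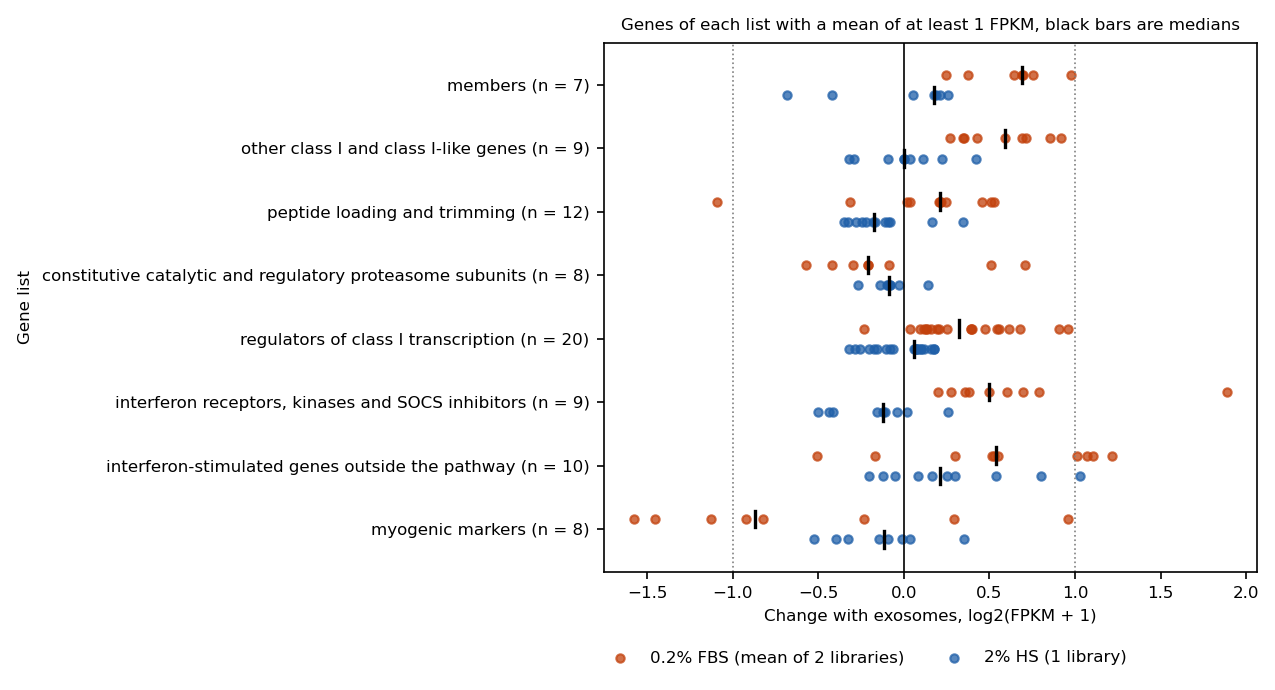
Change with exosomes of each gene that averaged 1 FPKM or more, by gene list, on the log2(FPKM + 1) scale. Orange points are the mean of 2 libraries of 0.2% FBS against 1 control, blue points 1 library of 2% HS against 1, and black bars the median of each list. The medians in 0.2% FBS run from 0.69 for the class I and antigen processing genes (members) to -0.87 for the myogenic markers.

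Other measures moved with the class I genes. Of the 8 myogenic markers, 6 had lower values and 2 higher ones in both libraries of 0.2% FBS + exosome, against 27.5% and 55.2% of all genes, with a median of -0.87. Acta1, skeletal actin, was at 5322 FPKM in the 0.2% FBS control and at 2335 and 1610 with exosomes, beside 2034 in growing cells. Myf5, a factor of undifferentiated myoblasts, was the 1 marker of the 8 that passed in limma, as higher (0.96, adjusted p = 0.0196), against 8.18% of all genes. In 2% HS the markers had a median of -0.12. The part of the differentiation state in the class I values was not tested. H2-K1 and H2-D1 were lowest in growing cells, while the other 5 of the 7 genes stood higher there than in 0.2% FBS without exosomes, with differences of 0.2% FBS from growing cells of -0.05 (B2m) to -0.37 (Psmb10). The summed leukocyte markers were 2.89 FPKM in the 0.2% FBS control and 3.47 and 3.15 with exosomes, with 2 of the 8 markers above the filter (Cd68 and Lyz2).

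Reads of close relatives limit single genes. Of the 75-base stretches of each gene's longest coding transcript, 1.55% in H2-K1, 7.10% in H2-D1 and 13.1% in H2-T23 also occur in transcripts of other genes, most of them class I relatives. Tap1 shares 4.79% and Psmb9 10.8% with each other on opposite strands, and Tapbp 17.5% mostly with Gm19412, an antisense gene. B2m and Psmb10 share none. The libraries were stranded, but the strand setting of the quantification is not given in the sources used here. C2C12 comes from C3H mice, whose class I alleles differ from those of the C57BL/6 reference, and the effect on the mapped reads was not tested.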

How the data were processed

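The authors trimmed 75 bp single-end reads of stranded mRNA libraries with cutadapt 1.9.1, mapped them to mm10 with TopHat2 2.1.0 and used Cufflinks for FPKM, deposited as 1 table with a column per library. Groups were taken from the labels. The genes and lists were chosen with earlier results of these data known. Changes are differences of log2(FPKM + 1). limma 3.58.1 (R 4.3.3) with a mean-variance trend was run on 10729 genes that averaged 1 FPKM or more, with Benjamini-Hochberg adjustment over all of them. The first fit had medium and exosome terms (5 libraries, 2 residual degrees of freedom) and the second 1 mean per condition (6 libraries, 1 residual degree of freedom). Both were run on simulated data in which every library had the same noise, taken from the spread of the 2 exosome replicates. That setting cannot check the equal spread assumed for single libraries. Of each list, genes past a log2 change of 1 in each exosome library or an adjusted p of 0.05 were named. Other named genes were chosen after their values were seen. Depth was estimated from genes with 1 transcript over 1000 bases, where 74.3% to 77.0% of low values lay within 0.1 of a whole read (20% if even). Alternatives were other pseudocounts (0.1 FPKM, or values raised to 1), scaling to the 75th percentile, no trend, no filter and leaving out either replicate. Some listed genes are not reported here.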

Additional observations from a re-analysis of the deposited data

Results flagged for a closer look

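Of the genes named by rule that entered the tests, 9 moved one way in both exosome libraries of 0.2% FBS and the other way in 2% HS, and 2 of these are class I and antigen processing genes. Genes outside the naming rule were not screened for this, so no share of all genes stands beside the 9, which are a description. The median of all genes was itself 0.14 higher in 0.2% FBS and 0.04 lower (-0.04) in 2% HS. The naming rule also uses the change in 0.2% FBS, which enters each difference. The differences below are the change in 0.2% FBS minus that in 2% HS on the log2(FPKM + 1) scale, and none passed an adjusted p of 0.05 in limma. In 2% HS there was 1 library with exosomes.

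For Tapbp the difference was 1.38 (0.70 against -0.68, adjusted p = 0.0540 in limma), and for Psmb10 it was 1.11 (0.69 against -0.42, adjusted p = 0.127). Among other class I genes, H2-T22 had a difference of 1.24 (adjusted p = 0.0764 in limma) and Mr1 one of 0.81 (adjusted p = 0.141). The peptidase Thop1 went the other way, at -1.44 (adjusted p = 0.0549 in limma). The differences of Psme1, Irf1, Socs3 and Myf5 were 0.81, 1.23, 2.00 and 1.48 (adjusted p = 0.184, 0.0774, 0.104 and 0.0547 in limma).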

How the results depend on the processing

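None of the 3 calls among the 7 genes (H2-D1, H2-T23 and Tapbp within 0.2% FBS) changed direction under the alternatives run for that medium, which were not run for the other lists' calls, while the common effect of Tapbp, 0.11 and not called, was -0.04 without replicate 1. The median change of the 7 genes in 0.2% FBS, 0.69, was 0.54 after scaling to the 75th percentile, and 0.61 to 0.68 when either exosome library was left out. Genes above 1 were 0 to 1 then, the 1 being B2m without replicate 1. In limma, 1 mean per condition called 3 of the 7 genes and 1342 of all within 0.2% FBS, where the common effect called 0, and 9 of all within 2% HS. The fit within 0.2% FBS called 1 of the 7 after scaling, an alternative chosen after seeing the data. For the difference between media, 1 of the 7 passed with a pseudocount of 0.1 FPKM. Over all genes, 45 passed with no trend, 0 with values raised to 1, 0 with no filter, 153 with a pseudocount of 0.1 FPKM and 178 after scaling, against 125, and the cause was not tested. From log-scale means, the exosome ratio of inducible to constitutive subunits was 1.62 against 2.29, and that of B2m to heavy chains 1.44 against 1.38. Psmb9 was positive under 2 of 5 alternatives. Pairing by the numbers in the labels (1 in 2% HS, 2 in 0.2% FBS) gives the same fit as leaving out replicate 2, which called 0 genes in limma, with 295 at an unadjusted p under 0.05. Depth limits Tap1, Psmb8 and Psmb9.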

Other observations

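The genes outside the list whose level followed the mean log2(FPKM + 1) of the 10 genes most closely over the 6 libraries, among those with a mean of at least 5 FPKM, were Pigs (Pearson r = 0.995), Gnptg (0.992), Fam50a (0.990), Il11ra1 (0.988) and Slc38a10 (0.988). The points share libraries and depth, and with 6 libraries and many genes searched these values are a description. Pigs, a subunit that attaches lipid anchors to proteins, was at 28.8 FPKM in 10% FBS, 34.0 in 2% HS, 33.3 in 2% HS + exosome, 30.2 in 0.2% FBS, and 40.8 and 45.6 in 0.2% FBS + exosome. Gnptg, a subunit of the enzyme that tags lysosomal proteins, had 35.3 FPKM in the 0.2% FBS control, 47.5 in replicate 1 and 56.1 in replicate 2 with exosomes. Among the 10 genes, the correlation with the mean of the other members was highest for B2m (0.948) and lowest for Psmb9 (0.135).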
